A study of Mus musculus with 7 samples.

Results

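The Bcl2 family decides whether a cell keeps its mitochondria intact or dies by apoptosis, and 10 of its genes were followed in sorted mouse bone marrow cells 1 day after classical dendritic cells were targeted. The genes were found by exact gene name among the 50435 gene rows of the deposited table, and all 10 were present once. They are Bcl2, Bcl2l1, Mcl1, Bcl2a1a, Bcl2a1b and Bcl2a1d, which protect cells, Bcl2l11, Bid and Bmf, which promote death, and Bak1, which forms the pore.

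In this family the protective proteins hold the pore-forming effectors in check by binding them and their activators. The BH3-only proteins, which share a single short helix with the rest of the family, occupy the protective proteins or activate the effectors directly. Once effectors open the outer mitochondrial membrane, cytochrome c is released, Apaf1 assembles the apoptosome and caspases are switched on. Blood cell types are known to depend on different protective members, with Bcl2l1 prominent in red cell precursors, Bcl2 in lymphocytes, and Mcl1 and the Bcl2a1 proteins in neutrophils.

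The DT group (3 samples) came from wild-type recipients that had been irradiated and given Zbtb46dtr bone marrow, and that 8 weeks later received 200 ng of diphtheria toxin in PBS into the peritoneum. The PBS group (4 samples) came from recipients of the same Zbtb46dtr marrow that received PBS alone, so irradiation and the donor allele are common to both groups. Marrow was taken 1 day after the injection, and cells labelled sinusoidal endothelial cells were sorted as CD31+ and Sca1- after removal of cells bearing CD45, CD11b, Gr1 or Ter119. The labels call the samples biological replicates. The donor allele places the toxin receptor under Zbtb46, so the toxin acts on donor-derived cells that express that gene, and nothing used here states the strain, age or sex of the mice or any pooling.

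The values are in RPM (reads for every 1e6 that a library holds). The smallest common step between values, taken as 1 read, put the libraries at 33196000 to 51246000 reads. A set of 12 endothelial genes summed to 10.2 to 18.7 RPM in DT and 1.45 to 9.35 RPM in PBS, and Cdh5, the endothelial cadherin, lay at 1.09 to 3.39 RPM in DT and 0.0001 to 2.68 RPM in PBS. The value 0.0001 is the offset the table gives to a gene with no read. Of the 12, 4 were under 1 RPM in every DT library and 7 in every PBS library, so the samples are called sorted cells here and their RNA is not assigned to endothelial cells. Neutrophil markers (13 genes) summed to 55870.3 to 60706 RPM in DT and 1937 to 4306 RPM in PBS, and monocyte and macrophage markers (9 genes) to 6697 to 8536 RPM in DT and 388 to 762 RPM in PBS. B lineage markers (9 genes) summed to 3157 to 3566 RPM in DT and 5186 to 7643 RPM in PBS, T and natural killer markers (7 genes) to 372 to 432 RPM in DT and 172 to 411 RPM in PBS and erythroid markers (9 genes) to 1503 to 2004 RPM in DT and 887 to 10488 RPM in PBS. The sums were 49.2 to 83.4 RPM in DT and 10.04 to 24.6 RPM in PBS for 6 dendritic cell genes, 50.6 to 152 RPM in DT and 51.7 to 213 RPM in PBS for 5 megakaryocyte genes and 17.0 to 38.7 RPM in DT and 2.89 to 39.4 RPM in PBS for 5 stromal genes. No gene of these 9 lists was at the offset in every library. With limma, 13 of 13 neutrophil genes, 9 of 9 monocyte and macrophage genes and 5 of the 6 T and natural killer genes tested were higher in DT, and 1 of those 6 was lower. Of 9 B lineage genes 8 were lower, and of 9 erythroid genes 6 were lower and 3 higher. Of the dendritic cell genes 4 were tested, of which 3 were higher in DT and 1 did not pass, and of the endothelial genes 3 were tested, of which 1 was higher and 2 did not pass. Of the 5 megakaryocyte and 3 stromal genes tested, 0 were called. Over all genes tested, 13.4% were higher and 18.6% lower. PBS replicate 1 stood apart from the rest of its group, with correlations of log2 values of 0.908 to 0.942 with the other PBS libraries, which correlated with each other at 0.950 to 0.963, and with the lowest erythroid sum of all 7 libraries. The neutrophil, monocyte and macrophage, dendritic cell and endothelial sums were higher in every DT library than in any PBS library. The B lineage sum was lower in every DT library. The T and natural killer, erythroid, megakaryocyte and stromal sums overlapped between the groups. The part of the marker sums in the results on the Bcl2 family was not tested. In such bulk samples fewer cells of a type and less RNA per cell cannot be told apart.

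The 3 Bcl2a1 genes encode copies of A1, a protective protein of blood cells whose transcription is known to be driven by NF-kB. Mice carry several copies of the gene. They lie on chromosome 9 in mm10 (GENCODE vM21), with Bcl2a1d at 88723285 to 88731914 on the minus strand, Bcl2a1a at 88956900 to 88962419 on the plus strand and Bcl2a1b at 89199209 to 89207827 on the plus strand. Their coding sequences are each 516 bases long and were identical at 97.9% (Bcl2a1a and Bcl2a1b), 98.6% (Bcl2a1a and Bcl2a1d) and 98.8% (Bcl2a1b and Bcl2a1d) of positions. Only 12 coding positions differ among the 3 copies, and 6 of them fall in the first 60 coding bases. Those bases are shown to make plain how little separates the copies, with the differing positions in capitals (GENCODE vM21 transcripts, mm10, 5′ to 3′).
Bcl2a1a: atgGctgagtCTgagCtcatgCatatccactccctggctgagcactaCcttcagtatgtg
Bcl2a1b: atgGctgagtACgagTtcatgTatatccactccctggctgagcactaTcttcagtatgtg
Bcl2a1d: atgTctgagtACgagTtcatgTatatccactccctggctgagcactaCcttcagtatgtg

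Counted from the first base of the start codon, with the base of Bcl2a1a first, Bcl2a1b and Bcl2a1d share the substitutions C11A, T12C, C16T and C22T in that stretch. Bcl2a1d alone has G4T and Bcl2a1b alone has C48T. The sequencing reads were 50 bases long. Of all 50-base windows in a copy's transcript, 69.0% for Bcl2a1a, 79.2% for Bcl2a1b and 79.5% for Bcl2a1d also occur in a transcript of another gene. The shared partners were the other copies, Bcl2a1c and Gm29094, a protein-coding gene on the same strand whose exons cover 49.1% of those of Bcl2a1b. Reads from such windows cannot be assigned to 1 copy by sequence, so the split of reads among the copies is uncertain. Their sum is therefore given as well, without and with Gm29094.

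The start regions of the 3 copies are also alike. Each window runs from 250 bases before to 50 bases after the transcription start of RefSeq (GRCm38.p6), and where windows overlapped they matched at 99.2% for Bcl2a1a and Bcl2a1b, 96.0% for Bcl2a1a and Bcl2a1d and 96.5% for Bcl2a1b and Bcl2a1d. They are shown because the 3 copies were all higher in DT. Capitals mark matches to TGANTCA, a loose AP-1 type pattern that allows any base at its centre, and to GAGGAAGT, a PU.1 type motif. Both strands were searched.
Bcl2a1a chr9:88956670-88956969 (+): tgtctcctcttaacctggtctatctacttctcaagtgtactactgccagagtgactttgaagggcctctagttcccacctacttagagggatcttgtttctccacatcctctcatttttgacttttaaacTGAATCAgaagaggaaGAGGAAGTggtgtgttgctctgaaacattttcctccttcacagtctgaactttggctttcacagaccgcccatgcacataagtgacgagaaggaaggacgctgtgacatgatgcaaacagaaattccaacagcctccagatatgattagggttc
Bcl2a1b chr9:89199023-89199322 (+): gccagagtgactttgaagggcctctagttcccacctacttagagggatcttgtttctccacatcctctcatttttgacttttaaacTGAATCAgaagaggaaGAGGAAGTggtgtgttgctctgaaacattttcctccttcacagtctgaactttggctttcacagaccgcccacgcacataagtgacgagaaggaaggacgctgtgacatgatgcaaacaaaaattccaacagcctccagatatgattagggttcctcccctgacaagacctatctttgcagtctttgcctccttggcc
Bcl2a1d chr9:88731801-88732100 (-): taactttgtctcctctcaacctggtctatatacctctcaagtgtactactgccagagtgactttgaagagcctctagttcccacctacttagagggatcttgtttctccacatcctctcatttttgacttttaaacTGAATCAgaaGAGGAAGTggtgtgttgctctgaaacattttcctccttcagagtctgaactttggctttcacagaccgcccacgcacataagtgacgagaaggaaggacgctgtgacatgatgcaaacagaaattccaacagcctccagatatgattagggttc

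Both motifs occur once in each of the 3 windows, on the strand as written, which is that of the gene, and without overlapping each other. The pattern TGANTCA is the same on both strands, so it has no direction. TGAATCA begins 120, 164 and 114 bases before the start of Bcl2a1a, Bcl2a1b and Bcl2a1d, and GAGGAAGT begins 104, 148 and 104 bases before it. Among all 32851 windows of the same length, 7.81% hold TGANTCA and 3.20% hold GAGGAAGT. Bcl2a1a, Bcl2a1b and Bcl2a1d are copies of 1 sequence, so their matches are not independent. Of the other 12 windows of the family, that of Bak1 holds GAGGAAGT on the strand opposite to its gene, and none holds TGANTCA. An NF-kB type motif, GGG and TTTCC with any 2 bases between, found in 1.63% of all windows, is present in a window of Bcl2l1 and in that of Mcl1, and TTGCGCAA, a C/EBP motif found in 0.183% of all windows, in none of the family's 15. A match or its absence describes these letters in these windows only.

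The other members that rose, Bcl2 and Bid, start in sequence with a higher GC content than the Bcl2a1 copies. GC content was 76.0% in the Bcl2 window and 63.3% in the Bid window, against 44.7%, 46.7% and 44.3% for Bcl2a1a, Bcl2a1b and Bcl2a1d and a median of 52.7% over all windows. This was not particular to members that rose, as GC content was 65.7% in the Mcl1 window and 71.0% and 74.0% in those of Bcl2l11. The windows of Bcl2l1, Bak1 and Bmf lay at 49.3% to 58.7%. The Bcl2l11 and Bmf windows hold none of the 4 motifs searched. None occurs in the Bcl2 and Bid windows either, so these have no capitals.
Bcl2 chr1:106714241-106714540 (-): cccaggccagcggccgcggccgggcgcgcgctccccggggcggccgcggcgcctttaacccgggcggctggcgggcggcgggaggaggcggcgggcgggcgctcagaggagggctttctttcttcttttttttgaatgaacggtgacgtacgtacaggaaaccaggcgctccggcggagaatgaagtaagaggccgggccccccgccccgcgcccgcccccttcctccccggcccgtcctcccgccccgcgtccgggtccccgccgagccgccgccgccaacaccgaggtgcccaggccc
Bid chr6:120916775-120917074 (-): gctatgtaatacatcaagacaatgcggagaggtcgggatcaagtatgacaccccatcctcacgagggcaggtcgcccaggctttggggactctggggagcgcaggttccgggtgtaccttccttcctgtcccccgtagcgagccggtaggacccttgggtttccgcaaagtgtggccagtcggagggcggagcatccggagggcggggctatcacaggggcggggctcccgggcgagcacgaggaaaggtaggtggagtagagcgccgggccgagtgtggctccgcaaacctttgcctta

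The study set toxin-treated against PBS-treated mice to see how RNA of the sorted cells changed. Of the 10 family genes, 5 rose in DT (Bcl2, Bcl2a1a, Bcl2a1b, Bcl2a1d and Bid), 0 fell and 5 did not pass (limma on log2(RPM + 1), adjusted p under 0.05 over the 14100 genes that averaged 1 RPM or more). By role, 4 of 6 protective genes rose, 3 of them the Bcl2a1 copies, while Bcl2l1 and Mcl1 did not pass. Bid rose among the 3 BH3-only genes, and Bak1 did not pass. Over all genes tested, 13.4% were higher and 18.6% lower. Bcl2a1a, Bcl2a1b and Bcl2a1d averaged under 1 RPM in PBS. They passed the filter only through their DT values, so their means had to be higher in DT. Neither the count of 5 nor the 4 of 6 by role is support by itself. At an unadjusted p under 0.05, 0 members were lower, and limma voom on estimated reads also gave 0. The median log2 difference over all genes tested was -0.23, and median-ratio scaling moved it to -0.01, with all 5 rises still called.

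**Figure D1:**
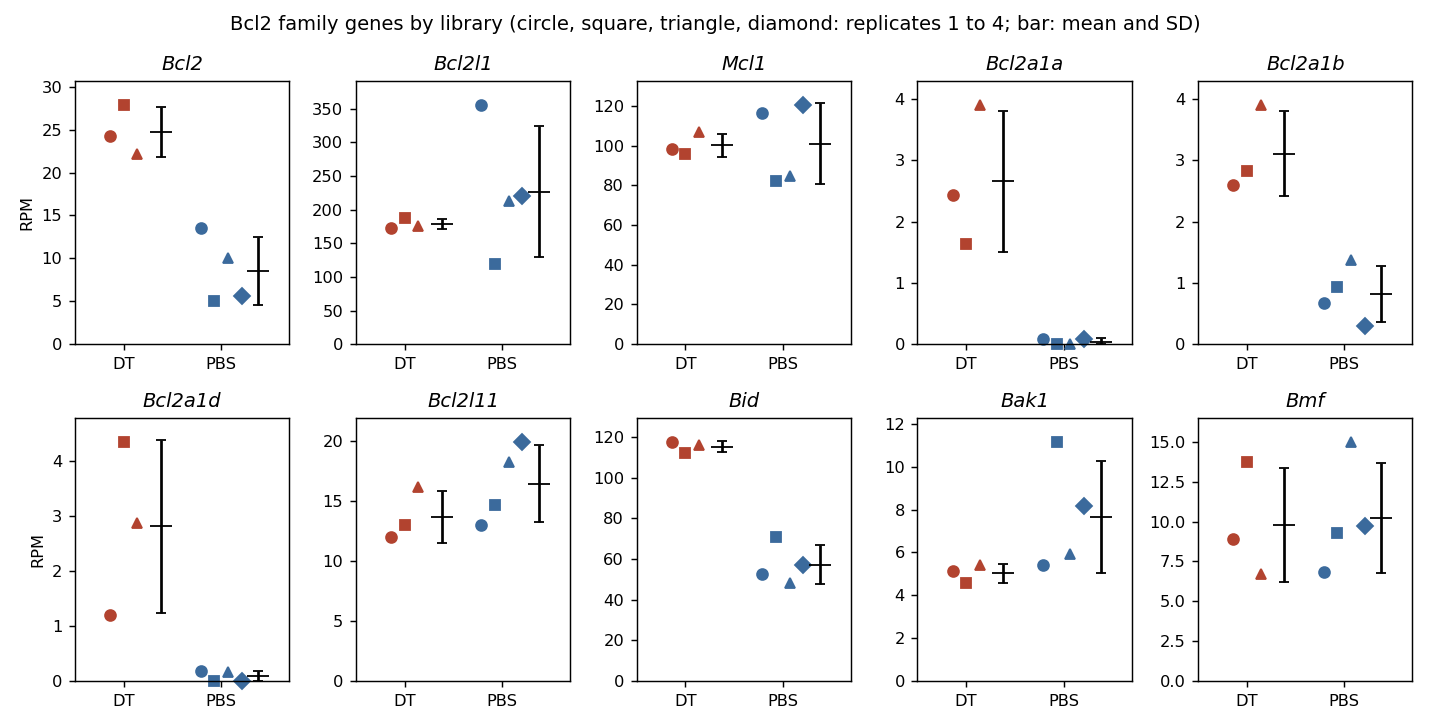
RPM of each of the 10 Bcl2 family genes (vertical axes, starting at 0) in 3 DT libraries (red) and 4 PBS libraries (blue), with the mean and SD in black. Bcl2, Bcl2a1a, Bcl2a1b, Bcl2a1d and Bid lie higher in every DT library than in any PBS library, whereas Bcl2l1, Mcl1, Bcl2l11 and Bmf overlap between the groups.

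The DT and PBS values did not overlap in 6 members. Of these, 5 were higher in DT, where 16.1% of all genes tested were higher without overlap. Bak1 was lower, where 24.7% were lower without overlap. The Bcl2a1 copies, 3 of the 5, passed the filter only through their DT values, so their lack of overlap is no support. Bcl2, the founding member and a survival factor of lymphocytes, lies on chromosome 1 at 106538178 to 106714274 (minus strand). It was at 24.2, 27.9 and 22.2 RPM in DT replicates 1 to 3, against 13.5, 5.01, 10.1 and 5.61 RPM in PBS replicates 1 to 4. Every DT library lay above every PBS library, and PBS replicates 1 and 3 were above PBS replicates 2 and 4. Bcl2 averaged 24.8 ± 2.89 RPM in DT (SD, n = 3) and 8.55 ± 4.00 RPM in PBS (SD, n = 4), a ratio of 2.90. The difference in log2(RPM + 1) was 1.52 ± 0.33 (SE; limma, adjusted p = 0.00701). It kept its call in all 17 alternatives, with values from 1.33 to 1.75. The non-coding gene D630008O14Rik, on the opposite strand, overlaps 6.09% of the Bcl2 exons and was at 0.298 RPM or less.

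Bcl2a1b, the copy with the most reads in PBS, was at 2.60, 2.83 and 3.91 RPM in DT replicates 1 to 3, against 0.676, 0.933, 1.38 and 0.302 RPM in PBS replicates 1 to 4. The highest PBS library lay under the lowest DT library. The log2 difference was 1.20 ± 0.31 (SE; limma, adjusted p = 0.0163). Without DT replicate 3 the adjusted p was 0.0686, and without a filter on low values it was 0.0508 (limma). The difference was 1.93 with a pseudocount of 0.1 and 2.10 by voom. Gm29094, the gene that overlaps Bcl2a1b, was at 5.89, 5.62 and 7.62 RPM in DT and 1.22, 0.439, 1.20 and 0.000687 RPM in PBS, and rose too (limma, adjusted p = 0.00163). It averaged 0.715 RPM in PBS and, like the copies, passed the filter only through its DT values. Its call is therefore no support for that of Bcl2a1b.

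Bcl2a1a was at 2.43, 1.64 and 3.90 RPM in DT replicates 1 to 3, against 0.0896, 0.0001, 0.000347 and 0.0862 RPM in PBS replicates 1 to 4. This is about 367 reads over the DT libraries and 6.3 over the PBS libraries, where 2 libraries had less than 1 read. The log2 difference was 1.76 ± 0.30 (SE; limma, adjusted p = 0.00211). Bcl2a1d was at 1.21, 4.35 and 2.88 RPM in DT replicates 1 to 3, against 0.185, 0.0001, 0.164 and 0.0001 RPM in PBS replicates 1 to 4, or about 379 and 12.3 reads in all. Its log2 difference was 1.72 ± 0.34 (SE; limma, adjusted p = 0.00484). Both copies were near the offset in PBS, so a ratio of means would rest on a handful of reads and is not given, and the difference depends on the pseudocount, at 4.25 for Bcl2a1a and 3.97 for Bcl2a1d with a pseudocount of 0.1, and 6.15 and 5.72 by voom.

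Summed over Bcl2a1a, Bcl2a1b and Bcl2a1d, the values were 6.24, 8.83 and 10.7 RPM in DT and 0.951, 0.933, 1.54 and 0.388 RPM in PBS. The sum was 8.58 ± 2.24 RPM in DT (SD, n = 3) and 0.953 ± 0.471 RPM in PBS (SD, n = 4), a ratio of 9.0. Its level depends on how reads shared with Gm29094 were assigned. With Gm29094 added, it was 14.96 ± 3.12 RPM in DT and 1.67 ± 1.02 RPM in PBS, a ratio of 8.97. Every DT library was above every PBS library. The copies and Gm29094 passed the filter only through their DT values, so this lack of overlap is no support. The split among copies varied between DT libraries. Bcl2a1d held 19.3%, 49.3% and 26.9% of the sum without Gm29094 in DT replicates 1, 2 and 3, and Bcl2a1a held 39.0%, 18.6% and 36.5%. Bcl2a1b held 41.7%, 32.1% and 36.6% in DT and 71.2% to 99.98% in PBS. Given the windows the copies share, a change of share cannot be told apart from a change in how reads were assigned. Bcl2a1c was at the offset in every DT library. The neutrophil markers stood at 55870.3 to 60706 RPM in DT and 1937 to 4306 RPM in PBS beside these values, and their part in the rise was not tested.

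**Figure D2:**
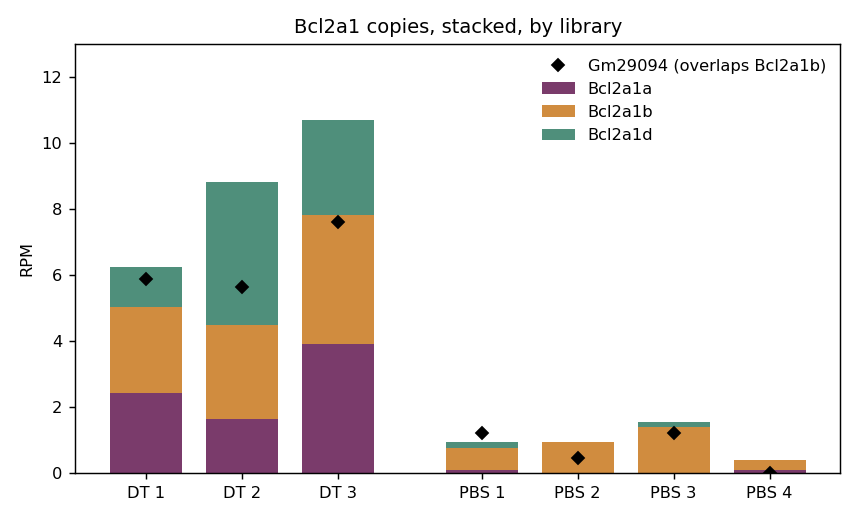
RPM of the 3 Bcl2a1 copies stacked in each library, with diamonds for Gm29094, whose exons overlap Bcl2a1b. The summed copies reach 6.24 to 10.7 RPM in DT and 0.388 to 1.54 RPM in PBS, and the share of each copy differs between the DT libraries.

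Bid is a BH3-only protein that caspase-8 cleaves, which carries the signal of death receptors to the mitochondria, and its gene lies on chromosome 6 at 120891930 to 120916853 (minus strand). Bid was at 118, 112 and 116 RPM in DT replicates 1 to 3, against 52.6, 70.6, 48.3 and 57.1 RPM in PBS replicates 1 to 4. The groups were far apart, and the DT libraries lay within a narrow span. It averaged 115 ± 2.76 RPM in DT (SD, n = 3) and 57.2 ± 9.66 RPM in PBS (SD, n = 4), a ratio of 2.02. The log2 difference was 1.01 ± 0.16 (SE; limma, adjusted p = 0.00125), with values from 0.94 to 1.26 over the 17 alternatives, all called. Bcl2l13, on the opposite strand, overlaps 17.7% of the Bid exons, and nothing used here states whether counting used strand. Bcl2l13 itself was at 31.5, 23.9 and 29.7 RPM in DT replicates 1 to 3, against 25.4, 43.4, 42.3 and 23.3 RPM in PBS replicates 1 to 4, which overlapped.

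The other protective genes, Bcl2l1 and Mcl1, were among the most abundant members in both groups and did not pass. Bcl2l1, which encodes Bcl-xL, lies on chromosome 2 at 152780668 to 152831728 and was at 173, 188 and 176 RPM in DT replicates 1 to 3, against 356, 119, 213 and 221 RPM in PBS replicates 1 to 4. All 3 DT values fell inside the PBS range, which ran from PBS replicate 2 to PBS replicate 1. The log2 difference was -0.24 ± 0.29 (SE; limma, adjusted p = 0.561) with a 95% interval of -0.90 to 0.42. Mcl1, a short-lived protein needed by stem cells and myeloid cells, lies on chromosome 3 at 95658788 to 95663176 and was at 98.2, 95.8 and 107 RPM in DT replicates 1 to 3, against 116, 82.3, 84.5 and 120.5 RPM in PBS replicates 1 to 4. PBS replicates 1 and 4 were above and PBS replicates 2 and 3 below every DT library. Its log2 difference was 0.01 ± 0.17 (SE; limma, adjusted p = 0.971) with an interval of -0.38 to 0.40.

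Of the remaining genes that promote death, none passed. Bcl2l11 encodes Bim, which binds all protective members, and lies on chromosome 2 at 128126038 to 128162547. It was at 11.97, 13.01 and 16.2 RPM in DT replicates 1 to 3, against 12.98, 14.7, 18.3 and 20.0 RPM in PBS replicates 1 to 4, with overlapping groups. The log2 difference was -0.24 ± 0.23 (SE; limma, adjusted p = 0.456) with an interval of -0.76 to 0.28. Bmf, a BH3-only protein linked to detachment and stress, lies on chromosome 2 at 118528757 to 118549687. It was at 8.88, 13.7 and 6.73 RPM in DT replicates 1 to 3, against 6.84, 9.28, 15.0 and 9.73 RPM in PBS replicates 1 to 4, and the log2 difference was -0.06 ± 0.32 (SE; limma, adjusted p = 0.905) with an interval of -0.78 to 0.66. Bak1, the pore-forming effector, lies on chromosome 17 at 27019810 to 27029009. It was at 5.12, 4.56 and 5.42 RPM in DT replicates 1 to 3, against 5.42, 11.2, 5.94 and 8.15 RPM in PBS replicates 1 to 4. The highest DT library, replicate 3, lay under the lowest PBS library, replicate 1, by less than the third digit. Bak1 had a log2 difference of -0.48 ± 0.30 (SE; limma, adjusted p = 0.239) with an interval of -1.14 to 0.18, and Ggnbp1 overlaps its exons on the opposite strand.

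Levels of different genes were compared per kb of annotated exons. In DT the order was Bcl2l1 (39.0 ± 1.76 RPM per kb), Bid (32.5 ± 0.777), Mcl1 (29.3 ± 1.67), Bcl2a1b (3.81 ± 0.854), Bcl2a1d (3.26 ± 1.82), Bcl2a1a (3.25 ± 1.40), Bcl2 (2.70 ± 0.315), Bak1 (2.09 ± 0.182), Bmf (1.86 ± 0.684) and Bcl2l11 (1.71 ± 0.271 RPM per kb; SD, n = 3). Each of Bcl2l1, Bid and Mcl1 lay above the next gene in every DT library, as did Bcl2 above Bak1. The neighbours from Bcl2a1b to Bcl2 and from Bak1 to Bcl2l11 overlapped.

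In PBS the order was Bcl2l1 (49.5 ± 21.3 RPM per kb), Mcl1 (29.5 ± 5.95), Bid (16.1 ± 2.72), Bak1 (3.19 ± 1.09), Bcl2l11 (2.05 ± 0.400), Bmf (1.94 ± 0.656), Bcl2a1b (1.01 ± 0.553), Bcl2 (0.933 ± 0.437), Bcl2a1d (0.101 ± 0.117) and Bcl2a1a (0.0538 ± 0.0619 RPM per kb; SD, n = 4). Mcl1 lay above Bid, Bid above Bak1 and Bcl2 above Bcl2a1d without overlap, and the other neighbours overlapped. Bid stood above Mcl1 in DT and below it in PBS. Exon length was taken over all annotated transcripts, so a gene with a long unused end, such as Bcl2 with 9.157 kb, can be placed too low.

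**Figure D3:**
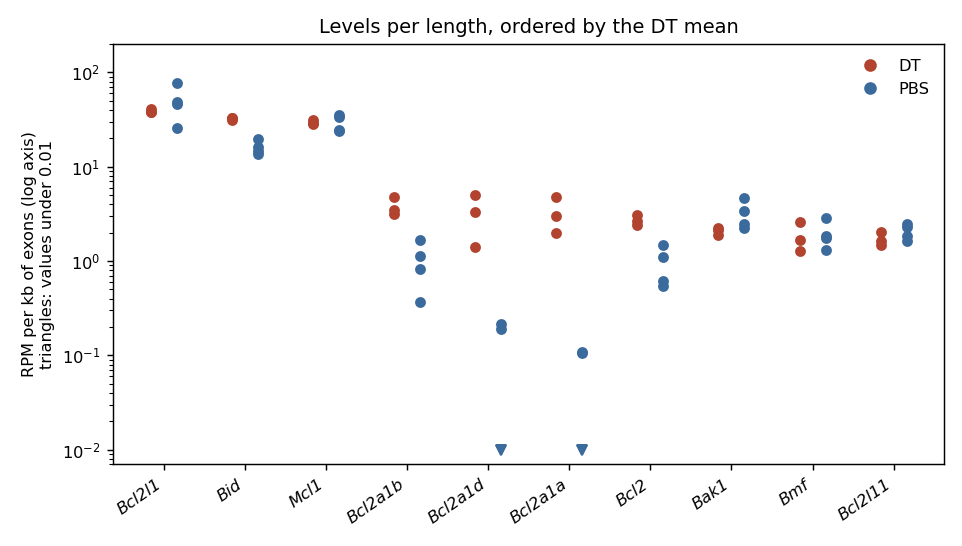
RPM per kb of exons on a log axis for each member, ordered by the DT mean, with DT libraries in red and PBS libraries in blue and triangles for values under 0.01. Bcl2l1, Mcl1 and Bid lie above 10 in every library, and the other 7 members lie at or under 5.04.

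The other family genes and the caspase pathway were read from whole lists. Of 17 other family genes, 10 were tested, 1 rose, 1 fell and 8 did not pass, with a median log2 difference of -0.15 (all genes tested, -0.23). Of all genes tested 13.4% were higher and 18.6% lower, and the counts of this list are not set apart from those shares. Pmaip1, which encodes Noxa, a BH3-only protein that binds Mcl1 and A1, was at 14.3, 6.33 and 22.2 RPM in DT replicates 1 to 3, against 3.71, 1.38, 1.11 and 0.0260 RPM in PBS replicates 1 to 4. All DT libraries lay above PBS but differed widely among themselves. The log2 difference was 2.63 ± 0.54 (SE; limma, adjusted p = 0.00545), and it was 3.73 with a pseudocount of 0.1 and 4.32 by voom. Bcl2l12, a divergent relative, was at 28.6, 25.6 and 28.2 RPM in DT replicates 1 to 3, against 39.4, 45.7, 46.4 and 39.5 RPM in PBS replicates 1 to 4 and fell by 0.62 on the log2 scale (limma, adjusted p = 0.0152). Median-ratio scaling gave it a limma adjusted p of 0.102, and omitting DT replicate 2 or 3 gave 0.0629 or 0.0529.

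Bax, the effector that acts beside Bak1, was at 62.1, 64.0 and 65.7 RPM in DT replicates 1 to 3, against 71.7, 95.5, 70.6 and 81.7 RPM in PBS replicates 1 to 4, with no overlap but an adjusted p of 0.145 (limma). Bad, a BH3-only protein controlled by phosphorylation, was at 45.0, 51.8 and 46.0 RPM in DT replicates 1 to 3, against 36.6, 42.6, 31.5 and 41.7 RPM in PBS replicates 1 to 4. Its groups did not overlap either, with DT higher, and the adjusted p was 0.164 (limma). Of all genes tested 16.1% were higher and 24.7% lower without overlap. Bbc3, Bik, Hrk, Bcl2l10, Bcl2l14, Bcl2l15 and Bcl2a1c were under the filter, with no value above 2.34 RPM. Hrk and Bcl2l10 were at the offset in all 7 libraries. Bax, Bad, Hrk, Bcl2l10 and the other genes under the filter were named after their values were seen.

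Of 25 genes of the apoptosome, caspases, their inhibitors and Mcl1 turnover, 24 were tested, 1 rose, 6 fell and 17 did not pass, with a median log2 difference of -0.27. Over all genes tested 13.4% were higher and 18.6% lower, with a median of -0.23, and these counts are not set apart from that background. Cflar encodes c-FLIP, which blocks caspase-8, the protease that cleaves Bid. It was at 75.3, 56.7 and 55.0 RPM in DT replicates 1 to 3, against 44.7, 30.7, 40.1 and 42.1 RPM in PBS replicates 1 to 4 and had a log2 difference of 0.65 ± 0.19 (SE; limma, adjusted p = 0.0255). Omitting DT replicate 1, 2 or 3 gave Cflar a limma adjusted p of 0.117, 0.0551 or 0.0532, and dropping the filter 0.0591. Casp8 was at 80.9, 67.1 and 87.0 RPM in DT replicates 1 to 3, against 72.5, 59.7, 65.8 and 74.5 RPM in PBS replicates 1 to 4 and did not pass (limma, adjusted p = 0.351).

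Among the genes that fell were Huwe1 and Usp9x, which act on Mcl1 stability in opposite ways. Huwe1, a ubiquitin ligase that marks Mcl1 for destruction, was at 48.2, 47.3 and 52.7 RPM in DT replicates 1 to 3, against 76.5, 109, 102 and 92.4 RPM in PBS replicates 1 to 4, with a log2 difference of -0.92 ± 0.16 (SE; limma, adjusted p = 0.00218). Usp9x, a deubiquitinase that stabilises Mcl1, was at 41.0, 30.7 and 28.8 RPM in DT replicates 1 to 3, against 49.5, 86.6, 60.2 and 72.5 RPM in PBS replicates 1 to 4, with a log2 difference of -0.97 ± 0.22 (SE; limma, adjusted p = 0.00832). The groups did not overlap in either gene. Fbxw7, a further ligase component acting on Mcl1, was at 25.6, 33.1 and 22.2 RPM in DT replicates 1 to 3, against 32.7, 37.2, 43.6 and 36.2 RPM in PBS replicates 1 to 4 and did not pass (limma, adjusted p = 0.0868).

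Casp6, an effector caspase, was at 28.4, 22.1 and 16.2 RPM in DT replicates 1 to 3, against 42.4, 49.3, 58.1 and 56.1 RPM in PBS replicates 1 to 4, with a log2 difference of -1.20 ± 0.21 (SE; limma, adjusted p = 0.00274). Birc6, a large inhibitor of apoptosis protein, was at 109, 84.0 and 101 RPM in DT replicates 1 to 3, against 162, 156, 179 and 161 RPM in PBS replicates 1 to 4, with a log2 difference of -0.75 ± 0.14 (SE; limma, adjusted p = 0.00324). Diablo, which neutralises inhibitors of this kind, was at 50.8, 67.1 and 63.6 RPM in DT replicates 1 to 3, against 74.4, 104, 101 and 122 RPM in PBS replicates 1 to 4 and also fell (limma, adjusted p = 0.0179). Omitting DT replicate 1, DT replicate 3 or PBS replicate 4 gave Diablo a limma adjusted p of 0.081, 0.0525 or 0.0508, dropping the filter 0.0578 and median-ratio scaling 0.071. Diablo, Casp8 and Fbxw7 were named after their values were seen.

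**Figure D4:**
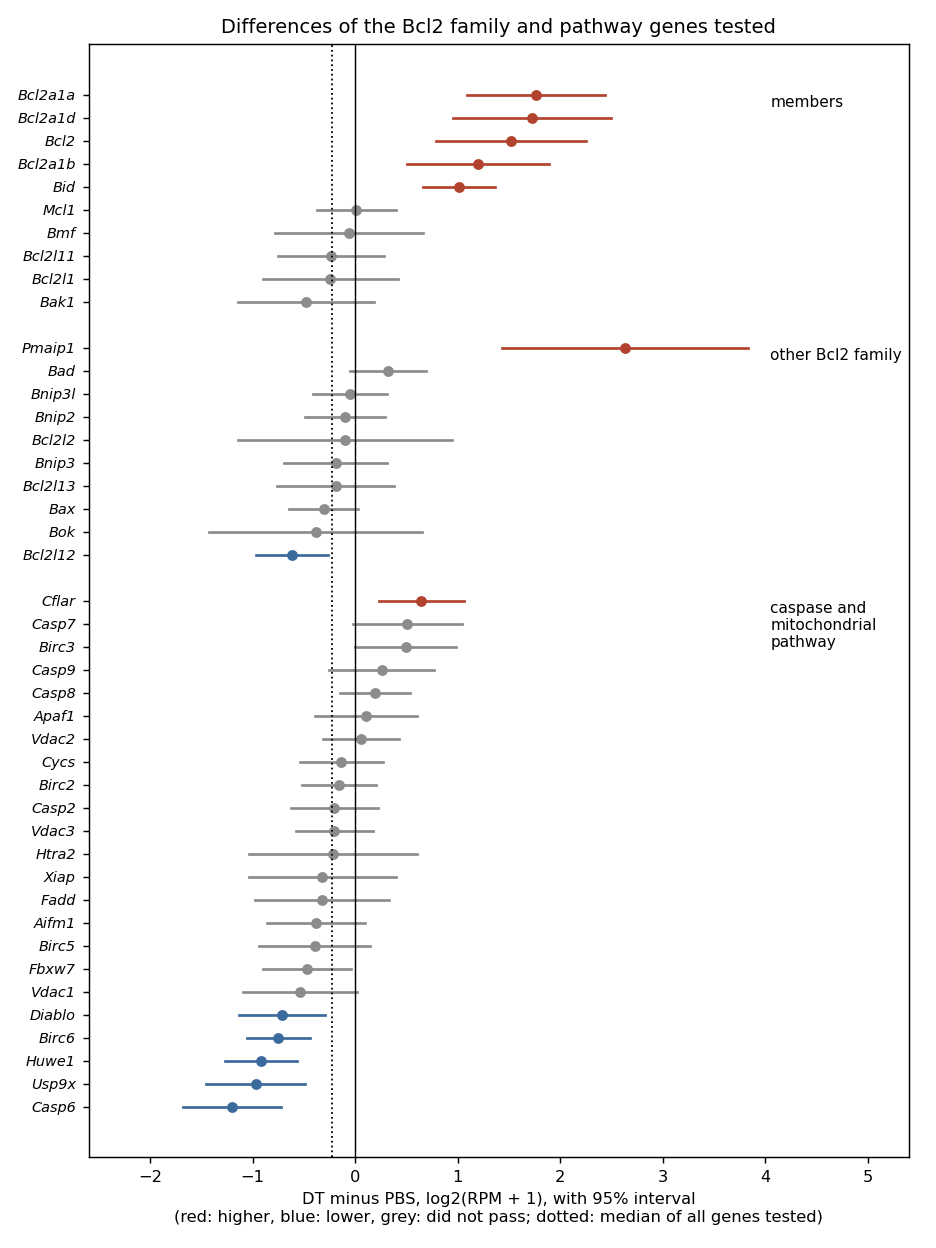
DT minus PBS in log2(RPM + 1) with 95% intervals for the members, the other Bcl2 family genes and the caspase and mitochondrial pathway genes that were tested and are reported, from high to low in each list, with higher calls in red, lower calls in blue and genes that did not pass in grey. The rises lie between 0.65 (Cflar) and 2.63 (Pmaip1), the falls shown between -1.20 (Casp6) and -0.62 (Bcl2l12), and the dotted line marks the median of all genes tested at -0.23.

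For each member the 2 genes with the most like pattern were found by the root mean square difference between log2(RPM + 1) profiles, each centred on its mean over the 7 libraries. Nearest to Bcl2 were P2ry2 and Parp8, at 0.17 each on the log2 scale. Parp8 was at 29.9 ± 0.880 RPM in DT and 9.0 ± 4.33 RPM in PBS. Nearest to Bid were Fdps at 0.06 and Gnal at 0.07, with Fdps at 49.9 ± 1.25 RPM in DT and 24.0 ± 2.54 RPM in PBS. Nearest to Bcl2a1a were Pglyrp2 and Ifitm10 (0.14 each), to Bcl2a1b Tnfsfm13 and Npl (0.21 each) and to Bcl2a1d Chac1 and Samd3 (0.15 each). The pairs were Arhgap17 and Neil1 for Bcl2l1 (0.08 and 0.10), Fundc1 and Gmfg for Mcl1 (0.05 and 0.06), Sucla2 and Lmf1 for Bcl2l11 (0.08 and 0.09), Sord and Ipo5 for Bak1 (0.08 each) and Ddx19b and Vps37a for Bmf (0.14 and 0.16). With 7 libraries in 2 groups many genes share such profiles, and likeness is given as a description.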

How the data were processed

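Total RNA (1 ng) was amplified for 14 cycles with an ultra-low input kit and read as single 50-base reads, per the labels' protocols. The tools were STAR 2.5.3a and Partek with the mm10 build, per the submitters' processing notes. Nothing used here states how reads were assigned to genes or strands. The table the authors deposited is labelled FPKM, but its values behave as RPM: above an offset of 0.0001 the most frequent low value was shared by 1025 to 1202 genes per library, which values divided by length would not do. The limma test on log values was kept. Only 60.8% to 62.8% of the values at or under 20 steps lay within 0.02 of a whole step, so no count test was the main one. Reads per gene in the text are estimates from the step, and cover counting error only.

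The 14100 genes averaging 1 RPM or more were fitted with limma 3.58.1 in R 4.3.3, with an intensity trend, on log2(RPM + 1), DT minus PBS, two-sided, with Benjamini-Hochberg adjustment over all of them. This scale understates differences of low genes. The script was tested on simulated data. Ratios are of mean RPM. No per-sample column was left unused (0). Positions and exon lengths are from GENCODE vM21, start windows from RefSeq (all 10 members matched), alignments from Biopython 1.88. Protein comparisons named in the design were not run, as protein sequences were not used here.

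The members and lists were chosen with earlier results of these data known. Named are all members, up to 4 genes called per direction in each list by smallest p, and 2 genes of like profile per member, leaving out predicted genes, clones, pseudogenes and small RNAs. Gm29094, D630008O14Rik, Ggnbp1, Bcl2l13 and Cdh5 were named for overlap or as a check. A called gene of the pathway list is counted but not reported here by name. Alternatives covered the pseudocount, the filter, 3 scalings, the trend, array weights, voom on estimated reads, a replicate block and leaving out each library.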

Additional observations from a re-analysis of the deposited data

How the results depend on the processing

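Bcl2, Bid, Bcl2a1a and Bcl2a1d kept direction and call in every alternative that tested them (17 for Bcl2 and Bid, 16 for the copies). Bcl2a1a and Bcl2a1d passed the filter only through their DT values, so keeping the call is no support for them. The split of reads between the copies also stays uncertain. The number of members higher was 4 without a filter, 2 with a minimum mean of 5 RPM, where the Bcl2a1 copies are not tested, and 4 to 5 with a library left out. The replicate number as a block, in which PBS replicate 4 has no partner, gave 4, with Bcl2a1b at an adjusted p of 0.0649 (limma), and also ended the call of Bcl2l12 (adjusted p = 0.0593) but of no other gene recomputed. Same-numbered samples' deviations from their group means correlated at 0.0419, 0.0485 and 0.0103, and not every sample correlated best with its own number, so no pairing was assumed. Over all genes, 2622 were lower as deposited, 1689 without a filter, 1261 under median-ratio scaling, 1574 with the block, 1502, 1610 and 1215 without DT replicates 1, 2 and 3, and 1838 to 3613 without a PBS library, the most without PBS replicate 1. Rises made up 41.9% of calls as deposited and 65.5% under median-ratio scaling, where Bad joined Pmaip1 (2 other family genes higher, 0 lower). The block also gave 0 lower, and leaving out a library 0 to 1. Pathway genes higher numbered 0 without a filter, 3 under median-ratio scaling, 2 with array weights and 0 to 2 with a library left out (0 without each DT library in turn, 2 without PBS replicate 1). Pathway genes lower numbered 4 to 9 with a library left out. Among members that did not pass, Mcl1 turned to -0.0384 with equal column sums and -0.0230 with array weights, and Bcl2l1 and Bmf to 0.004 and 0.16 under median-ratio scaling. With a library left out, Mcl1 ran from -0.0793 to 0.10, Bmf from -0.31 to 0.15 and Bcl2l1 from -0.51 to 0.0092. The cause was not tested. Depth limits the Bcl2a1 copies in PBS, where 3 reads equal 0.0767 to 0.0904 RPM.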

Other observations

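PBS replicate 1, the library with the lowest erythroid sum, also held the extreme PBS value of several genes described. It had the highest Bcl2l1 and Bcl2 of the 4 PBS libraries and the lowest Casp6, Bak1 and Bmf. Casp6 was at 42.4 RPM there and at 49.3, 58.1 and 56.1 RPM in PBS replicates 2 to 4. PBS replicate 2, with the highest erythroid sum of 10488 RPM, had the lowest Bcl2l1 and Bcl2 and the highest Bid and Bak1 of the PBS libraries. Without PBS replicate 1 the log2 difference was 1.75 for Bcl2, 0.98 for Bid and 0.01 for Bcl2l1. These orders rest on 4 libraries and were noticed after the values were seen.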
